A study of Arabidopsis thaliana with 9 samples.

Results

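The HAP5 triple mutant and the constans mutant of Arabidopsis thaliana were compared directly, as the 3 arrays titled with the triple mutant against the 3 titled with the constans mutant, 6 of the 9 arrays of the series. The other 3 arrays, from wild type, were used to place each difference. The triple mutant was labelled as T-DNA knock-outs of HAP5 genes in Col-0, with the source name Q3. HAP5 genes encode NF-YC proteins, and the 3 genes are, by knowledge of the study rather than by the labels, the NF-YC members numbered 3, 4 and 9. The constans mutant had the source name co-SAIL and a single stock code, with no background given, and wild type was Col-1, so the genotypes and their backgrounds cannot be told apart. All plants shared the same conditions. Seeds spent 4 days at 4 °C, and plants grew on soil for 10 days at 22 °C under long days, lit for 16 h and dark for 8 h. All above-ground tissue was collected 14 h after lights on. Labels give no number of lines, plants per pool or separate cultures, so the p-values rest on a spread between arrays that may be technical.

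CONSTANS is a B-box transcription factor that accumulates in long-day evenings and activates the florigen gene FT in the leaf vasculature. NF-Y complexes bind the CCAAT box as trimers of A, B and C subunits, and their NF-YC members can bring CONSTANS to the FT promoter. Loss of either delays flowering in long days. The direct comparison therefore asks which transcripts separate mutants that share a late-flowering phenotype, and which of them departs from wild type in each case.

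Transcripts were measured on Affymetrix ATH1 arrays, where each probe set reports a MAS5 signal, a linear brightness with the same trimmed mean on every array. Signals under 1.03 were set to that floor. Differences were fitted on log2 signals in limma for the 14173 of 22746 probe sets whose mean reached 18.6 in at least 1 genotype, and a probe set was called at an adjusted p under 0.05. Every error given with a log2 difference is the SE of the fit with n = 3 arrays per genotype, and array values are listed in the order of replicate 1, 2 and 3. Median signals were 33.1 to 37.1 on the 9 arrays. A control probe set for 25S ribosomal RNA, which should be depleted by priming on poly(A) tails, was uneven. It read 42.4, 16.9 and 15.9 on triple mutant arrays, 56.5, 1152 and 1079 on constans arrays and 22.6, 108 and 418 on wild-type arrays. The highest 2 were thus constans arrays, and this control is given beside the results it moved with. Summed signals of 3 green-leaf markers overlapped between all genotypes, at 10130 to 12830 in the triple mutant and 11060 to 13640 in the constans mutant. Of these markers LHCB4.2 was called. Sums of 3 root markers did not overlap between the mutants, at 189.5 to 229.3 in the triple mutant and 256.3 to 293.1 in the constans mutant, with wild type at 201.4 to 224.9. Neither did sums of 2 seed-storage markers, at 10.7 to 16.6 against 16.9 to 25.6, with wild type at 13.2 to 19.2. No seed-storage or flower marker and 1 of the root markers, PYK10, reached the filter, and the part of such tissue in the results was not tested. In whole shoots, fewer cells of a type and less RNA per cell cannot be told apart, and the number of arrays limits the precision throughout. No named probe set matched NF-YC3, NF-YC4, NF-YC9, CO, FT, SOC1 or FLC, so the labels could not be checked against the mutated genes.

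Between the mutants 479 of 14173 probe sets were called (3.38%). The triple mutant was higher in 274 (1.93%) and lower in 205 (1.45%), and an unadjusted p under 0.05 was met by 2514. The size of the difference was at least 2-fold in 169, and its median over the called probe sets was 0.83 on the log2 scale, beside a median difference of 0 over all tested probe sets. A single gene was named for 211 of the 479, 120 higher and 91 lower in the triple mutant. The calls were sensitive to the arrays that entered. With the 25S signal as a covariate 132 were called, and 135 were called without the 3 arrays whose 25S signal exceeded 400, which leaves the constans mutant with 1 array whose spread is assumed to be that of the others. In each of these fits 115 were among the 479. Without constans 1 the count was 927, and it was 207 without constans 3, 289 without constans 2 and 219 to 281 without a triple mutant array.

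For most probe sets that separated the mutants, wild type lay on the side of the triple mutant. The constans mutant differed from wild type in 198 probe sets (1.40%) and the triple mutant in 13 (0.0917%). These counts were 37 and 27 without the arrays of 25S above 400, and 275 and 99 with array weights. Of the 479 probe sets called between the mutants, 151 were also called in the constans mutant alone against wild type, 10 in the triple mutant alone, 1 in both and 317 in neither. These comparisons share arrays, so the counts are a placing and no independent evidence. The wild-type mean was closer to the triple mutant in 355 of 479 (74.1%), 196 of the 274 that were higher in the triple mutant and 159 of the 205 that were lower. The same share was not taken over all tested probe sets. A trait of the called probe sets therefore cannot be told apart from a general displacement of the constans arrays. Over the higher set the median distance to wild type was 0.28 for the triple mutant but -0.50 for constans, and over the lower set it was -0.23 but 0.62. Over the alternative settings the share closer to the triple mutant ranged from 69.1% to 87.1%. A core of 75 probe sets was called under each of 22 alternative fits that tested it, 47 higher and 28 lower in the triple mutant, and 23 of them had a single gene name. In 65 of the 75 wild type was closer to the triple mutant.

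**Figure D1:**
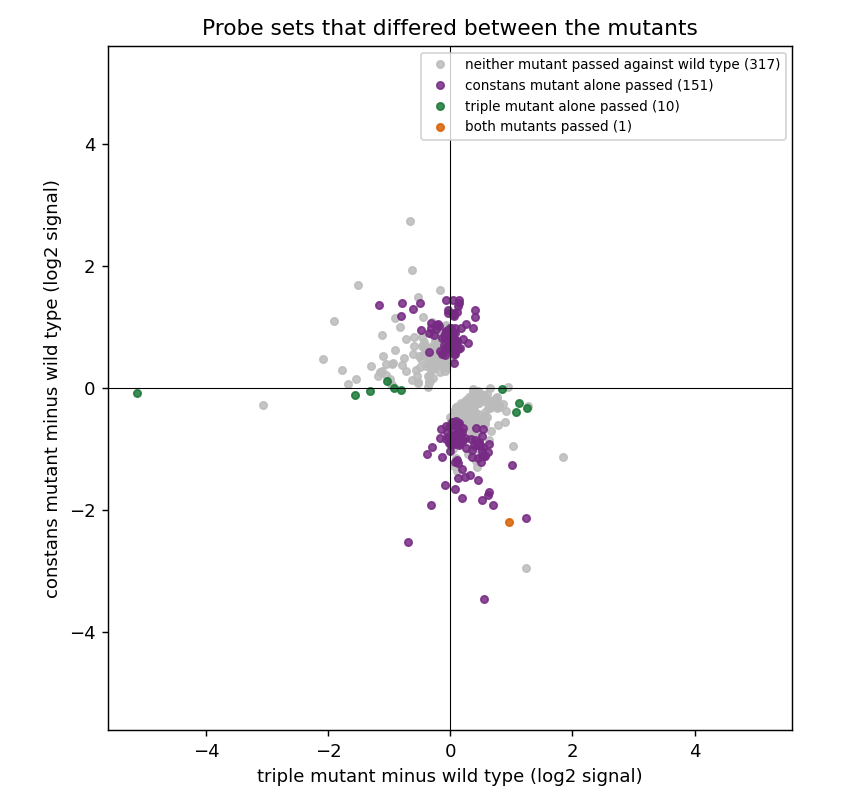
Each point is one of the 479 probe sets called between the mutants, with the triple mutant minus wild type on the horizontal axis and the constans mutant minus wild type on the vertical axis, both as log2 signal. The 151 purple points, called in the constans mutant alone against wild type, have a median of 0.07 on the horizontal axis and range there from -1.17 to 1.24, while the 10 green points lie between -0.40 and 0.11 on the vertical axis.

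A list drawn up for rapid induction by calcium, touch and wounding included many members that were higher in the triple mutant than in the constans mutant. That each member is known for such induction was not checked. Of 26 probe sets on this list 23 were tested. Between the mutants 13 were higher in the triple mutant, 1 was lower and 9 were not called, with a median of 0.99 on the log2 scale. Over all tested probe sets 1.93% were higher and 1.45% were lower. Relative to wild type the list median was 0.28 in the triple mutant, with no member called, whereas it was -0.93 in constans plants, with 11 members lower and 1 higher. These counts and medians were fixed in part by how the list was drawn, since 12 members came from genes that earlier results of these data had named. Those 12 were all called, with a median of 1.71 between the mutants, and they hold all 12 calls against wild type. Of the other 14 members 11 were tested, and EXO and ARL were called, both higher in the triple mutant. Their median was 0.40 between the mutants, 0.28 for the triple mutant and -0.16 for constans relative to wild type, with 0 of 11 called in either, so the placing of wild type near the triple mutant rests on the earlier-named genes. Without constans 3 the median of these 11 was 0.21, and with the 25S covariate none of them was called.

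STZ encodes a zinc-finger repressor induced by cold, salt and wounding. Its signals were 331, 292 and 201 on the triple mutant arrays, 116, 70.4 and 72.3 on the constans arrays and 179, 214 and 153 on the wild-type arrays. No triple mutant array overlapped a constans array, and wild type lay between them with 1 array inside the range of the triple mutant. The difference between the mutants was 1.68 ± 0.21 (3.21-fold, limma adjusted p = 0.00038), while relative to wild type the triple mutant stood at 0.58 (adjusted p = 0.634) and constans at -1.11 (0.0153).

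WRKY53, a WRKY factor that promotes leaf senescence, had signals of 122, 140.5 and 117 on the triple mutant arrays, 68.9, 49.3 and 41.4 on the constans arrays and 132, 129.9 and 102 on the wild-type arrays. Triple mutant and wild-type arrays shared a range, and all constans arrays were lower. The difference was 1.28 ± 0.18 (adjusted p = 0.000846), while the distance to wild type was 0.07 in the triple mutant but -1.21 in the constans mutant.

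AT4G27280, an EF-hand calcium-binding protein gene, was among the tightest of these. Its signals were 524, 575 and 538 on the triple mutant arrays, 137, 136 and 150.1 on the constans arrays and 336, 429 and 440 on the wild-type arrays. The constans arrays lay far below the other 6, and wild type lay just under the triple mutant. The mutants differed by 1.96 ± 0.11 (3.88-fold, adjusted p = 5.97e-07), and the constans mutant differed from wild type by -1.50 (adjusted p = 1.32e-05).

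Other members had the same order of genotypes. AT3G19680 stood at 539, 547 and 625 on the triple mutant arrays, 202, 145 and 168 on the constans arrays and 443, 440.5 and 480.4 on the wild-type arrays, a difference of 1.75 ± 0.12 (adjusted p = 2.86e-06). AT5G52050, the efflux carrier DTX50, stood at 59.9, 69.2 and 80.8 on the triple mutant arrays, 22, 22.6 and 24.2 on the constans arrays and 42.5, 56.6 and 54.4 on the wild-type arrays, a difference of 1.60 ± 0.18 (adjusted p = 0.000151). In both the constans arrays were the lowest 3 and the triple mutant arrays the highest 3. AT2G41640 stood at 150.2, 149 and 138 on the triple mutant arrays, 44.1, 19.8 and 27.7 on the constans arrays and 68.1, 128 and 96.5 on the wild-type arrays (5.03-fold, adjusted p = 0.000151), and AT4G29780 at 88.4, 92.3 and 105 on the triple mutant arrays, 22.8, 15.4 and 21.1 on the constans arrays and 26.6, 67.2 and 57.8 on the wild-type arrays (4.86-fold, adjusted p = 0.000375). Wild type 1 was nearest to the constans arrays in both genes. AT2G20670 differed in its order, with signals of 128, 63.2 and 53.6 on the triple mutant arrays, 24.5, 19.2 and 20.9 on the constans arrays and 132, 105 and 131 on the wild-type arrays. Wild type was higher on average than the triple mutant here, with overlapping ranges, and all constans arrays were far below. The log2 difference was 1.82 between the mutants (adjusted p = 0.000898), and constans stood at -2.51 relative to wild type. AT5G42200 and AT1G04770, outside the naming rule, completed the called members, higher by 0.99 and 1.28.

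The AP2/ERF family gene AT1G77640 had signals of 124, 95.5 and 75.6 on the triple mutant arrays, 43.1, 24.1 and 23.6 on the constans arrays and 94.8, 88.9 and 91.1 on the wild-type arrays. Triple mutant and wild-type arrays overlapped, and the constans arrays were all lower, by 1.73 ± 0.22 against the triple mutant (adjusted p = 0.000508). Of the 2 called members outside earlier results, both chosen for the text after their values were seen, ARL, which promotes organ growth, stood at 107, 124 and 109 on the triple mutant arrays, 69.4, 62 and 55.2 on the constans arrays and 84.2, 112 and 74.3 on the wild-type arrays (0.87, adjusted p = 0.00705). EXO, a cell-wall protein gene that responds to brassinosteroid, stood at 2163, 1828 and 2025 on the triple mutant arrays, 1661, 1269 and 973 on the constans arrays and 1468, 1843 and 1771 on the wild-type arrays (0.66, adjusted p = 0.0383). The mutants did not overlap in either gene. Wild type overlapped the triple mutant in both and, for EXO alone, the constans mutant as well.

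Not every member of the list followed. The calmodulin-like genes CML23, CML38, CML41, CML42 and CML30 were not called, with log2 differences of 1.35, 0.26, -0.86, -0.02 and 0.04, and neither were WRKY6, WRKY22, PUB22 or PUB23. PUB24 went the other way and is described with the defence genes. The calls on STZ, AT4G27280, AT1G04770, AT3G19680, AT5G52050, AT2G41640 and AT4G29780 passed under each alternative fit. The calls on AT1G77640 and ARL ended with the 25S covariate (adjusted p = 0.0584 and 0.332) and without the arrays of 25S above 400 (0.0546 and 0.144), those on WRKY53 and AT5G42200 with the covariate alone (0.0841 and 0.0879), and that on AT2G20670 without these arrays alone (0.0967). The call on EXO ended in both (0.623 and 0.598), and the arrays whose loss ended it follow its name here: EXO (triple 1/2/3, constans 2/3, adjusted p = 0.0828 to 0.151).

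**Figure D2:**
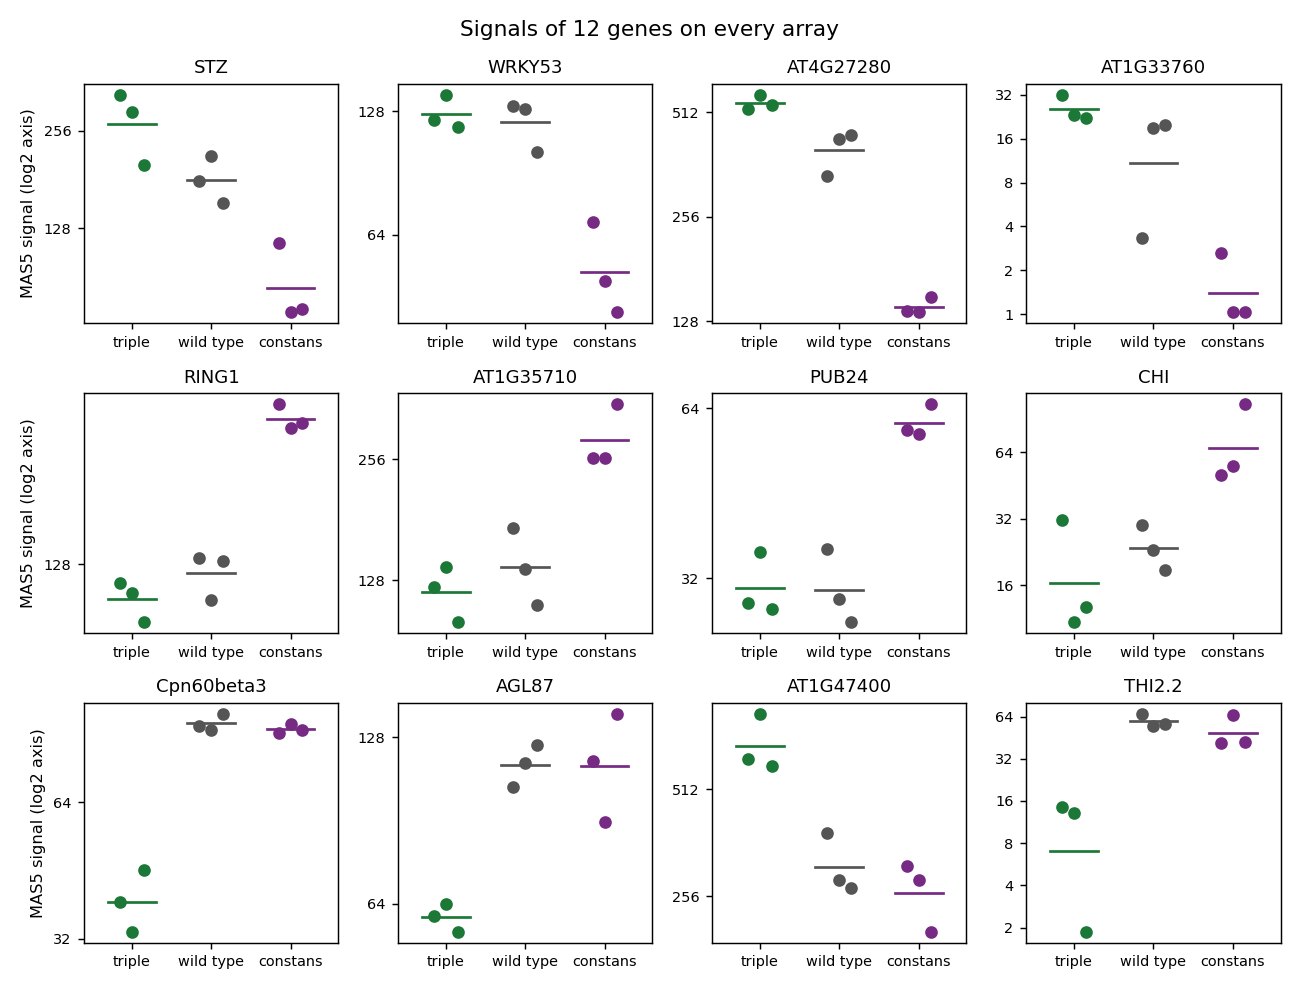
Points are the MAS5 signals of single arrays on a log2 axis whose range differs between panels, bars are geometric means, and each panel is 1 gene with 3 arrays of the triple mutant, wild type and the constans mutant. In the upper row the constans mutant is low, in the second row it is high, and in the lower row the triple mutant stands apart from the other genotypes.

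Beyond the lists, AT1G33760, another AP2/ERF family gene, was near the floor in the constans mutant, so that the size of its difference is uncertain. Its signals were 32.2, 23.5 and 22.3 on the triple mutant arrays, 2.62, 1.03 and 1.03 on the constans arrays and 3.33, 19.1 and 19.9 on the wild-type arrays. Constans 2 and 3 were at the floor and constans 1 near it, and wild type 1 was low as well. The difference of 4.19 ± 0.70 (adjusted p = 0.00382) depends on how such low signals are treated and ranged from 2.04 to 4.64 over the alternatives. AT5G15950, which encodes an S-adenosylmethionine decarboxylase of polyamine synthesis, had signals of 141, 142 and 136 on the triple mutant arrays, 54.5, 33.8 and 47.4 on the constans arrays and 86.8, 88.9 and 113 on the wild-type arrays. All constans arrays were below and all triple mutant arrays above the wild-type arrays, and the mutants differed by 1.65 ± 0.17 (adjusted p = 9.64e-05). AT1G72920 had signals of 87.6, 70.5 and 67 on the triple mutant arrays, 26.9, 17.6 and 27.6 on the constans arrays and 46.6, 60.2 and 41.4 on the wild-type arrays with the same order and a difference of 1.66 ± 0.21 (adjusted p = 0.000434), and AT1G72940, which lies 3 genes away and falls outside the naming rule, differed by 1.08 (adjusted p = 0.00144, but 0.106 with the 25S covariate). Such probe sets could share transcripts through sequence likeness, which was not tested.

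Among the remaining large rises, AT4G27654 had signals of 19.2, 31.2 and 24.1 on the triple mutant arrays, 5.49, 4.51 and 9.73 on the constans arrays and 10.1, 11.7 and 14.6 on the wild-type arrays (1.97, adjusted p = 0.0132). Its direct neighbours in the gene order, AT4G27652 and AT4G27657, chosen after their values were seen, were also higher in the triple mutant, by 1.08 and 1.07 (adjusted p = 0.0485 and 0.0298). AT3G14200 stood at 31.4, 35.1 and 27.9 on the triple mutant arrays, 14, 9.69 and 8 on the constans arrays and 27.9, 18.3 and 25.2 on the wild-type arrays (1.61, adjusted p = 0.00592). The mutants did not overlap in either gene. AT5G17350 and AT5G53750 were higher by 1.73 and 1.46 at adjusted p of 0.0373 and 0.0364. AT1G33760 and AT3G14200 did not pass with the 25S covariate (adjusted p = 0.0599 and 0.346) or without the arrays of 25S above 400 (0.101 and 0.17), AT4G27654 did not with the covariate (0.13), and AT5G17350 and AT5G53750 passed in neither (0.374 and 0.859 with the covariate). The neighbours AT4G27652 and AT4G27657 passed in neither (0.0964 and 0.26 with the covariate). Calls ended when the named single arrays were left out for AT4G27654 (triple 2/3, adjusted p = 0.0585 to 0.1), AT4G27652 (triple 1/2, constans 1/3, wild type 1/2/3, adjusted p = 0.05 to 0.196), AT4G27657 (triple 1/2, constans 3, adjusted p = 0.111 to 0.145), AT5G17350 (triple 1/2/3, constans 3, wild type 1/2, adjusted p = 0.0525 to 0.14) and AT5G53750 (triple 1/2/3, constans 2/3, wild type 1, adjusted p = 0.0544 to 0.166).

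Some defence genes were higher in the constans mutant, with the triple mutant near wild type. Of 9 tested salicylate and immune regulators 3 were lower in the triple mutant, none was higher and 6 were not called, with a median of -0.29 between the mutants, and of 0.01 for the triple mutant and 0.26 for constans relative to wild type. Over all tested probe sets 1.45% were lower in the triple mutant. The median was -0.16 with the 25S covariate, -0.11 without the arrays of 25S above 400 and -0.95 over the members that reached the stricter filter. The 3 were RING1, PUB24 and AT1G35710, and each was also called in the constans mutant against wild type. This list too was drawn with earlier results of these data known. Those had named PUB24, and RING1, AT1G35710 and the chitinase gene CHI may have come from them as well. The count of 3 may therefore be fixed by the choice of members and is no independent evidence.

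RING1, a RING-type ubiquitin ligase linked to programmed cell death in infected leaves, had signals of 119.6, 115 and 104 on the triple mutant arrays, 229.7, 210.5 and 214 on the constans arrays and 131, 112 and 129.6 on the wild-type arrays. The constans arrays were above the other 6, whose ranges overlapped. The difference between the mutants was -0.95 ± 0.11 (1.94-fold, adjusted p = 0.000232), and the constans mutant was higher than wild type by 0.81 (adjusted p = 0.00199).

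AT1G35710, a receptor-like kinase gene, had signals of 123, 138 and 101 on the triple mutant arrays, 258, 257 and 349.9 on the constans arrays and 172, 136 and 111 on the wild-type arrays. All constans arrays were above all others. The difference between the mutants was -1.25 ± 0.17 (adjusted p = 0.000834), and the constans mutant differed from wild type by 1.05 (adjusted p = 0.00581).

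PUB24, a U-box ubiquitin ligase that dampens pattern-triggered immunity, had signals of 28.9, 35.6 and 28.2 on the triple mutant arrays, 58.7, 57.6 and 65 on the constans arrays and 36.1, 29.4 and 26.8 on the wild-type arrays. Triple mutant and wild-type arrays overlapped and the constans arrays were higher, with a difference of -0.97 ± 0.18 (adjusted p = 0.0081). Its relatives PUB22 and PUB23 were not called, with log2 differences of 0.60 and 0.42, of the opposite sign. The other members, SAG101, GRX480, BIK1 and ChiC, had -0.68, -0.29, 0.06 and 0.13 and were not called.

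The chitinase gene CHI had signals of 31.7, 10.9 and 12.8 on the triple mutant arrays, 50.2, 55.6 and 105 on the constans arrays and 30.1, 23.1 and 18.9 on the wild-type arrays. The constans arrays were above all others, and the triple mutant lay on both sides of wild type. The difference was -2.02 ± 0.37 (4.05-fold, adjusted p = 0.0079). AT5G25440 differed by -1.40 (adjusted p = 0.00382), also highest in the constans mutant. Outside the naming rule, and chosen after their values were seen, the chitinase-family gene AT4G01700 and the peroxidase gene AT5G64120, or PRX71, had -0.97 and -0.83 (adjusted p = 0.00566 and 0.0337). With the 25S covariate AT4G01700 passed (0.0426), while AT5G25440 and AT5G64120 did not (0.107 and 0.272). Without the arrays of 25S above 400 AT5G25440 passed (0.0462), while AT4G01700 and AT5G64120 did not (0.0871 and 0.274). RING1 and AT1G35710 passed in each alternative fit. CHI and PUB24 did not pass with the 25S covariate (adjusted p = 0.276 and 0.0733) or without the arrays of 25S above 400 (0.246 and 0.157), and left-out arrays ended the calls on CHI (constans 3, adjusted p = 0.052), PUB24 (constans 3, adjusted p = 0.0506) and AT5G64120 (triple 2/3, constans 2/3, adjusted p = 0.0883 to 0.149).

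A smaller set put the triple mutant apart from both other genotypes. It held 10 probe sets that were called in the triple mutant alone against wild type, and 5 of them had a single gene name. The others, 264190_at among them, had no gene name and could include a mutated gene, which was not tested. Of these 5, AT2G24040 and AT2G40010 fall outside the naming rule and are given because the set is small.

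Cpn60beta3, a subunit of the plastid chaperonin that folds imported proteins, had signals of 38.5, 33.1 and 45.2 on the triple mutant arrays, 90.8, 95 and 92.5 on the constans arrays and 94.4, 92.4 and 100 on the wild-type arrays. The triple mutant arrays were below every other array, and constans and wild-type arrays shared one narrow range. The difference was -1.26 ± 0.14 against the constans mutant (2.4-fold, adjusted p = 0.000151) and -1.31 ± 0.14 against wild type (adjusted p = 0.000692), and the constans mutant differed from wild type by -0.04 (adjusted p = 0.951). The other 5 tested genes of plastid division, chaperones and import were not called.

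AGL87, a type I MADS-box gene, had signals of 60.8, 63.9 and 57 on the triple mutant arrays, 116, 90.0 and 141 on the constans arrays and 104, 115 and 124 on the wild-type arrays. All triple mutant arrays were below the others, and constans and wild type overlapped. The difference was -0.91 ± 0.15 (adjusted p = 0.00433), and it was -0.91 against wild type. AGL16, AGL18, AGL24 and AGL26, the other tested MADS-box genes, had -0.01, 0.40, -0.13 and -0.04 and were not called.

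AT2G24040 had signals of 51.2, 38.1 and 43.9 on the triple mutant arrays, 97.8, 87.5 and 109.8 on the constans arrays and 97.7, 87.4 and 86.8 on the wild-type arrays and differed by -1.15 ± 0.15 (adjusted p = 0.000434). AT2G40010 had signals of 73.9, 81.5 and 79.7 on the triple mutant arrays, 137, 136 and 126 on the constans arrays and 150.2, 146 and 116 on the wild-type arrays and differed by -0.77 ± 0.13 (adjusted p = 0.00355). In both genes the triple mutant was low and the other genotypes overlapped. The thionin gene THI2.2, which encodes an antimicrobial peptide, had signals of 14.5, 13.1 and 1.86 on the triple mutant arrays, 41.2, 65.6 and 42.4 on the constans arrays and 66.6, 55 and 56.6 on the wild-type arrays. Triple mutant arrays were the lowest 3, with array 3 far under the other 2, and constans and wild type overlapped. Its difference was -2.78 ± 0.56 between the mutants (adjusted p = 0.0139), and -3.07 against wild type, where it was not called (adjusted p = 0.0662).

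Probe sets without a gene name also held large differences, some of them set by signals near the floor. Whether any of them reports a mutated gene was not tested. For these probe sets a lesion itself and a response to it cannot be told apart. Probe set 264190_at had signals of 1.03, 6.28 and 1.08 on the triple mutant arrays, 58.9, 69.2 and 62.1 on the constans arrays and 72.6, 62.8 and 64.5 on the wild-type arrays, so that it was near the floor in the triple mutant alone. Its difference of -5.05 ± 0.51 (adjusted p = 9.64e-05) ranged from -5.91 to -2.94 over the alternatives. In the opposite pattern, 246525_at had signals of 32.7, 30.4 and 27.9 on the triple mutant arrays, 1.52, 4.3 and 1.03 on the constans arrays and 30.5, 23.6 and 12.4 on the wild-type arrays and was near the floor in the constans mutant alone, with a difference of 4.00 ± 0.53 (adjusted p = 0.000587) and a range of 2.08 to 4.60. Probe set 248964_at had signals of 499.5, 424 and 434 on the triple mutant arrays, 54.3, 52.6 and 46.2 on the constans arrays and 205, 272 and 223 on the wild-type arrays, the lowest in the constans mutant, the highest in the triple mutant and in between in wild type. It was the 1 probe set of the 479 called in both mutants against wild type, at 0.96 for the triple mutant (adjusted p = 0.00689) and -2.19 for the constans mutant (1.02e-06). The other 3 that the naming rule gave were 258653_at at 3.37, 260101_at at -3.20 and 266292_at at -3.39 (adjusted p = 0.000857, 0.0041 and 0.0405).

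Cpn60beta3, AT2G24040, AT2G40010 and the probe sets 264190_at, 246525_at and 248964_at passed between the mutants in each alternative fit that tested them, and AGL87 did not with the 25S covariate (adjusted p = 0.145) or with no filter. The call on THI2.2 ended with the covariate (0.346), without the arrays of 25S above 400 (0.317) and on leaving out constans 2 (0.0694), those on 258653_at, 260101_at and 266292_at with the covariate (0.0584, 0.207 and 0.646), and with left-out arrays those on 260101_at (constans 3, adjusted p = 0.0552) and 266292_at (triple 2/3, constans 2/3, wild type 1/2, adjusted p = 0.0533 to 0.208).

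Iron-status genes all had higher means in the triple mutant, and 1 of 5 was called, beside 1.93% called higher over all tested probe sets. This list was also drawn with earlier results of these data known, so the count and the shared direction are not free of that choice. AT1G47400, a small peptide gene of the iron deficiency response, had signals of 622, 834 and 596 on the triple mutant arrays, 311, 285 and 203 on the constans arrays and 385, 283 and 269.8 on the wild-type arrays. Triple mutant arrays were above all others, and constans and wild type overlapped. The difference was 1.37 ± 0.18 (2.58-fold, adjusted p = 0.000502), and against wild type it was 1.13 (adjusted p = 0.0309).

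BHLH101, a bHLH factor induced by iron shortage, had signals of 20.4, 39.9 and 19.2 on the triple mutant arrays, 9.31, 15.4 and 9.47 on the constans arrays and 14, 20.4 and 14.8 on the wild-type arrays, a difference of 1.17 ± 0.35 that was not called (adjusted p = 0.0909). PYE, a bHLH regulator of iron homeostasis, had 90.8, 101 and 72.3 on the triple mutant arrays, 66.3, 61.8 and 44 on the constans arrays and 55.5, 47.9 and 40.4 on the wild-type arrays, a difference of 0.63 ± 0.19 (adjusted p = 0.091). In both the mutants did not overlap, but for BHLH101 wild type reached into the triple mutant's range. ILR3 and bHLH115 had 0.33 and 0.08. The list median was 0.63 against either other genotype, and constans stood at -0.17 relative to wild type. Between the mutants it was 0.29 with the 25S covariate and 0.40 without the arrays of 25S above 400. AT1G47400 passed in each alternative fit except with the 25S covariate, where its adjusted p was 0.0535.

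Plastid-encoded transcripts had a lower mean in the triple mutant than in the constans mutant for 63 of 66 probe sets, with 9 of them called and the 25S control moving alongside. The plastid genome encodes core subunits of the photosynthetic complexes and part of the machinery that expresses them. Of 66 tested probe sets 9 were lower in the triple mutant, none was higher and 57 were not called. The shares over all tested probe sets were 1.45% lower and 1.93% higher. The median was -0.51 between the mutants, and -0.34 for the triple mutant but 0.16 for constans relative to wild type, where no member was called in either. By complex the medians between the mutants were -0.73 over 6 genes of the cytochrome b6f complex, -0.56 over 6 of ATP synthase, -0.50 over 10 of the NDH complex and -0.44 over 20 of the photosystems, beside -0.47 over 21 genes of transcription and translation.

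Of the photosynthesis genes, petD of the cytochrome b6f complex had signals of 94.8, 76.6 and 66.7 on the triple mutant arrays, 118, 467 and 276 on the constans arrays and 147, 173 and 286 on the wild-type arrays. Constans 1 lay near the triple mutant and constans 2 and 3 far above it. The difference was -1.66 ± 0.37 (adjusted p = 0.024). For petN of the same complex the signals were 231, 237 and 161 on the triple mutant arrays, 282, 918 and 628 on the constans arrays and 378, 435 and 575 on the wild-type arrays, with a difference of -1.40 ± 0.31 (adjusted p = 0.0243). The photosystem II gene psbB had 989.6, 959 and 724 on the triple mutant arrays, 1300, 2020 and 2272 on the constans arrays and 1230, 1918 and 2198 on the wild-type arrays, with -1.04 ± 0.22 (adjusted p = 0.0184). In all 3 genes the triple mutant arrays were below every other array, and constans 1 was the lowest of its genotype.

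The NDH gene ndhG stood at 405, 397 and 284 on the triple mutant arrays, 534, 1476 and 802 on the constans arrays and 570, 945 and 763 on the wild-type arrays, a difference of -1.26 ± 0.28 (adjusted p = 0.0246). The other called members, outside the naming rule, were the Rubisco large subunit gene rbcL, the photosystem II gene psbT and the ATP synthase gene atpH, with differences of -1.38, -1.15 and -1.12 (adjusted p = 0.026, 0.0475 and 0.0499), and triple mutant 1 reached above constans 1 for atpH alone among these 3. Of the ribosomal protein genes, rps14 had signals of 113, 106 and 77.1 on the triple mutant arrays, 141, 852 and 567 on the constans arrays and 219, 315 and 539 on the wild-type arrays, a difference of -2.07 ± 0.48 (adjusted p = 0.0299), and rpl14 had 189, 139.7 and 117 on the triple mutant arrays, 200.2, 750.2 and 412 on the constans arrays and 220.3, 316 and 396 on the wild-type arrays, a difference of -1.44 ± 0.35 (adjusted p = 0.0373). Again constans 1 lay close to the triple mutant and constans 2 and 3 well above. Genes that were not called ran from -1.88 for rpoB to 0.24 for psbJ, and psbE and psbK stood at 0.02 and 0.02.

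The 25S control moved with these genes. Constans 2 and 3, with signals of 1152 and 1079, had median deviations of 0.68 and 0.16 over the 66 genes from their 9-array means, and constans 1, with 56.5, had -0.16. The triple mutant arrays had -0.19, -0.18 and -0.52, and wild type had -0.23, 0.17 and 0.25, where wild type 1 also had the lowest 25S signal of its genotype. With the 25S signal as a covariate the median over the 66 genes was 0.02, of the opposite sign, and without the arrays of 25S above 400 it was -0.12, with no member called in either. Each of the 9 calls ended without triple mutant 3, without constans 2 and without constans 3, and without constans 2 the median was -0.28. Without constans 1, the constans array of low 25S signal, 35 members were called in place of 9, all lower, and the median was -0.70. Such losses were, for instance, in petD (triple 2/3, constans 2/3, adjusted p = 0.0825 to 0.0909), psbB (triple 3, constans 2/3, adjusted p = 0.0802 to 0.0911), rps14 (triple 1/2/3, constans 2/3, adjusted p = 0.0698 to 0.132), with an adjusted p of up to 0.21 for atpH. The share of the control in the plastid difference was not tested further.

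**Figure D3:**
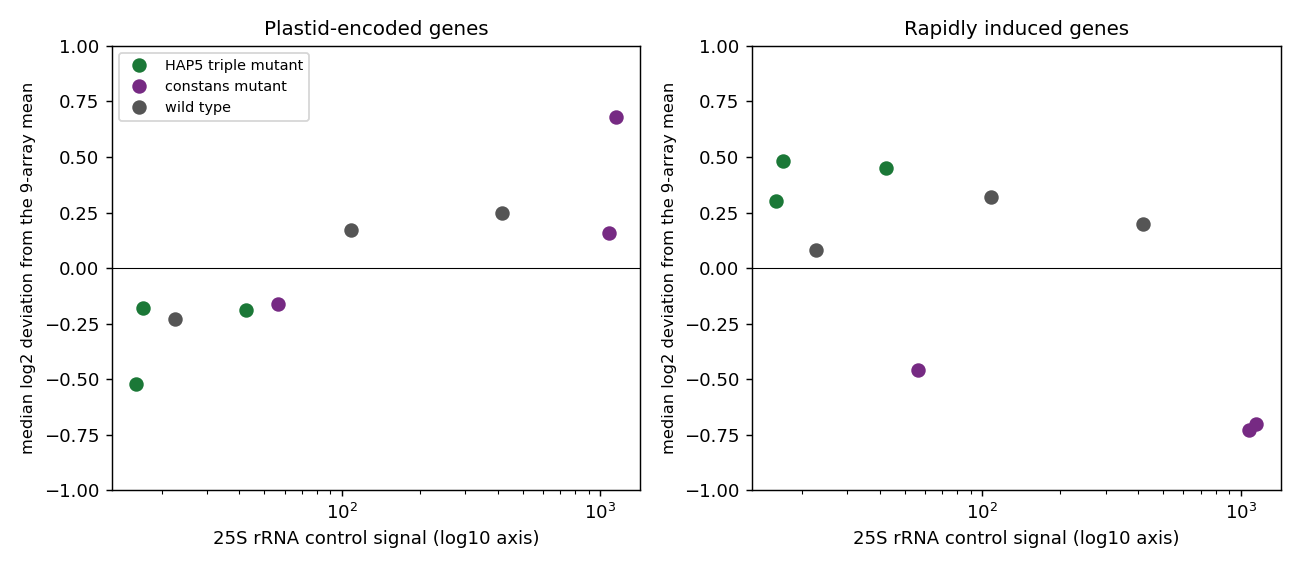
Each point is 1 of the 9 arrays, with the 25S control signal on a log10 axis. The vertical axis is the median log2 deviation from the 9-array mean. It is taken over 66 plastid-encoded genes (left) or 23 tested members of the rapid-induction list (right). On the left constans 2, at a 25S signal of 1152, is the highest at 0.68, while on the right all 3 constans arrays are low. Of the genes on the right 12 were drawn from earlier results of these data. Their medians were -0.71, -1.19 and -1.07 on constans 1, 2 and 3. Over the other 11 tested genes the medians were -0.02, -0.07 and -0.25.

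Nuclear photosynthesis genes shared no direction, with a median of 0.01 over 13 tested genes, 1 called higher, 1 called lower and 11 not called. Called shares over all tested probe sets were 1.93% higher and 1.45% lower, but the list was drawn with earlier results of these data known. NdhN, a nuclear-encoded subunit of the NDH complex, had signals of 885, 855 and 886 on the triple mutant arrays, 706, 572 and 522 on the constans arrays and 710.2, 714 and 630.5 on the wild-type arrays. The triple mutant arrays were above all others, and the difference was 0.56 ± 0.11 (adjusted p = 0.0149). LHCB4.2, an antenna protein of photosystem II, had signals of 842, 775 and 808 on the triple mutant arrays, 991, 1177 and 1113 on the constans arrays and 895, 853 and 995 on the wild-type arrays. Its triple mutant arrays were the lowest 3, and the difference was -0.43 ± 0.10 (adjusted p = 0.03). Its near relative LHCB4.1 had -0.04 and was not called, and RCA, the Rubisco activase gene, had -0.08. Neither NdhN nor LHCB4.2 passed against wild type in either mutant or with the 25S covariate (adjusted p = 0.599 and 0.708). Left-out arrays ended the calls on NdhN (triple 1/2/3, constans 2/3, adjusted p = 0.054 to 0.0808) and LHCB4.2 (triple 1/2/3, constans 2/3, adjusted p = 0.0648 to 0.159).

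Glucosinolate genes differed in both directions. Of 6 tested genes of glucosinolate synthesis and sulfur status 2 were higher in the triple mutant, 1 was lower and 3 were not called. All tested probe sets had shares of 1.93% higher and 1.45% lower, but the list was drawn with earlier results of these data known. The list median was 0.45, and it was 0.23 without the arrays of 25S above 400. BCAT4, which starts the chain elongation of methionine for aliphatic glucosinolates, had signals of 1078, 1054 and 904 on the triple mutant arrays, 745, 656 and 626 on the constans arrays and 869.6, 991 and 849 on the wild-type arrays. The constans arrays were below the other 6, and the difference was 0.58 ± 0.11 (adjusted p = 0.00837). UGT74B1, the glucosyltransferase of the glucosinolate core, had signals of 278, 297 and 290.1 on the triple mutant arrays, 189.8, 196 and 197 on the constans arrays and 247, 249.8 and 329.5 on the wild-type arrays, again with the constans arrays lowest, and a difference of 0.57 ± 0.12 (adjusted p = 0.0155).

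The sulfate-activating gene APS3 had 0.47 and was not called (adjusted p = 0.0568). PYK10, a beta-glucosidase of ER bodies that is abundant in roots, went the other way. Its signals were 222, 174 and 184 on the triple mutant arrays, 249, 266 and 286 on the constans arrays and 215, 193 and 211 on the wild-type arrays, higher in the constans mutant, with a difference of -0.47 ± 0.11 (adjusted p = 0.0382). It was the only tested member of the 3 root markers, and EXPA7 and EXPA18 stood under the filter in all genotypes. The part of root tissue in these values was not tested. The constans mutant had log2 differences from wild type of -0.42 for BCAT4, -0.49 for UGT74B1 and 0.37 for PYK10, none of them called. PYK10 and BCAT4 did not pass with the 25S covariate (adjusted p = 0.605 and 0.278), and left-out arrays ended the calls on BCAT4 (triple 2, constans 3, adjusted p = 0.052 to 0.0582), UGT74B1 (triple 2/3, constans 3, adjusted p = 0.0551 to 0.0825) and PYK10 (triple 2/3, constans 2/3, wild type 1, adjusted p = 0.0561 to 0.198).

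Few cell-wall genes were called, in numbers too small to be compared with the overall shares of 1.93% higher and 1.45% lower. Among 16 tested expansins and xyloglucan-modifying enzymes 1 was called higher and 1 lower, around a median of 0.04, and among 26 genes of pectin, cellulose and arabinogalactan likewise 1 each, around a median of -0.13. XTH33, a xyloglucan endotransglucosylase, had signals of 29.2, 22.8 and 30.4 on the triple mutant arrays, 66.3, 54.3 and 58 on the constans arrays and 22.5, 35.7 and 42.8 on the wild-type arrays, higher on the constans arrays than on any other (-1.12 ± 0.23, adjusted p = 0.0155). EXPA16, an expansin that loosens walls, had signals of 70.8, 76.7 and 77.5 on the triple mutant arrays, 46.1, 41.6 and 40.0 on the constans arrays and 37.8, 57.4 and 52.2 on the wild-type arrays. Here the triple mutant was above all others (0.82 ± 0.17, adjusted p = 0.0158).

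ATPMEPCRB, a pectin methylesterase, had signals of 152, 147 and 152 on the triple mutant arrays, 341, 230.4 and 213 on the constans arrays and 99, 128 and 116 on the wild-type arrays, lowest in wild type and highest in the constans mutant. It differed by -0.77 ± 0.16 between the mutants (adjusted p = 0.0158) and by 1.17 in the constans mutant against wild type (adjusted p = 0.00171). TBL26, of a family of wall acetyltransferases, had signals of 526, 396 and 315 on the triple mutant arrays, 296, 191 and 134 on the constans arrays and 381, 467 and 337 on the wild-type arrays, with the constans arrays lowest and a wide spread in both mutants (1.04 ± 0.24, adjusted p = 0.0289). XTH33, EXPA16 and TBL26 did not pass with the 25S covariate (adjusted p = 0.448, 0.17 and 0.711). Calls were lost when the named single arrays were left out for XTH33 (triple 2, constans 3, adjusted p = 0.0563 to 0.0825), EXPA16 (triple 2/3, constans 2/3, adjusted p = 0.0502 to 0.0786), ATPMEPCRB (triple 1/2/3, adjusted p = 0.0505 to 0.0699) and TBL26 (triple 1/2, constans 2/3, adjusted p = 0.0923 to 0.126).

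Cold and dehydration genes shared no direction. Of 7 tested, STZ and TIL were higher in the triple mutant, beside 1.93% of all tested probe sets. The other 5 were not called, and the list median was -0.16. The sign of that median turned with the 25S covariate (0.39), without the arrays of 25S above 400 (0.11) and without constans 3 (0.08). TIL, a lipocalin induced by temperature stress, had signals of 463, 487 and 509 on the triple mutant arrays, 385, 318 and 384 on the constans arrays and 353, 375 and 405 on the wild-type arrays, a difference of 0.43 ± 0.11 (adjusted p = 0.0387) that did not pass with the 25S covariate (0.413), and left-out arrays ended the call on TIL (triple 1/2/3, constans 2/3, wild type 1/2, adjusted p = 0.054 to 0.152). The cold-regulated genes LTI30, COR47, COR15A and COR15B had -0.72, -0.44, -0.32 and -0.16. For these 4 genes and DI21 both mutants were above wild type on average, by 0.58 and 0.89 for COR15A, with no call.

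The jasmonate list held no call between the mutants among 7 tested genes. AT2G38240 was just outside the threshold, with signals of 22.5, 14.7 and 26.6 on the triple mutant arrays, 53.5, 75.8 and 90.0 on the constans arrays and 17.6, 3.78 and 15.6 on the wild-type arrays and a difference of -1.79 ± 0.46 (adjusted p = 0.0507). The mutants did not overlap, and against wild type the constans mutant was higher by 2.82 (adjusted p = 0.006). OPCL1, of jasmonate synthesis, had 0.38 (adjusted p = 0.206).

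None of 5 tested flowering regulators with a named probe set was called, with differences of -0.13 to 0.28. SNZ and SMZ, AP2-type floral repressors, had 0.28 ± 0.18 and 0.20 ± 0.23 (adjusted p = 0.436 and 0.69). None of 5 clock and light-signalling genes was called either, and all 5 were higher on average in the triple mutant, with a median of 0.31. GI, which links the clock to CONSTANS expression, had signals of 36.4, 36.2 and 36.5 on the triple mutant arrays, 20.0, 2.07 and 18.1 on the constans arrays and 35.4, 31 and 27.1 on the wild-type arrays. The mutants did not overlap, but constans 2 was far below the other constans arrays, and the difference of 2.00 ± 0.61 was not called (adjusted p = 0.095). It was called in 5 of 21 alternative fits, and its adjusted p over them ranged from 0.0251 to 0.895.

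Hormone lists were small and held no call. The cytokinin genes ARR15, a response regulator, and UGT76C2 had -0.56 and -0.42, the gibberellin receptor gene GID1B had -0.64, the auxin-conjugating GH3.17 had -0.53, and the ethylene genes RTE1 and EIN3 had 0.43 and 0.17. Lists of chlorophyll and carotenoid synthesis, flavonoids, sugar and starch, histones, cytochrome P450 and glutathione transferases had 5 to 11 tested members each, medians of -0.23 to 0.10 and no call. Among 21 UDP-glycosyltransferases UGT74B1 was higher and UGT87A2 was lower in the triple mutant, beside 1.93% and 1.45% of all tested probe sets. UGT87A2, which has been linked to flowering time, had signals of 102, 111 and 97.3 on the triple mutant arrays, 142, 144 and 202 on the constans arrays and 119.6, 105 and 119.5 on the wild-type arrays, with the constans arrays highest (-0.64 ± 0.14, adjusted p = 0.024). Its call did not pass with the 25S covariate (0.475) and ended without any 1 of the arrays named here: UGT87A2 (triple 1/2/3, constans 3, adjusted p = 0.0596 to 0.103).

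**Figure D4:**
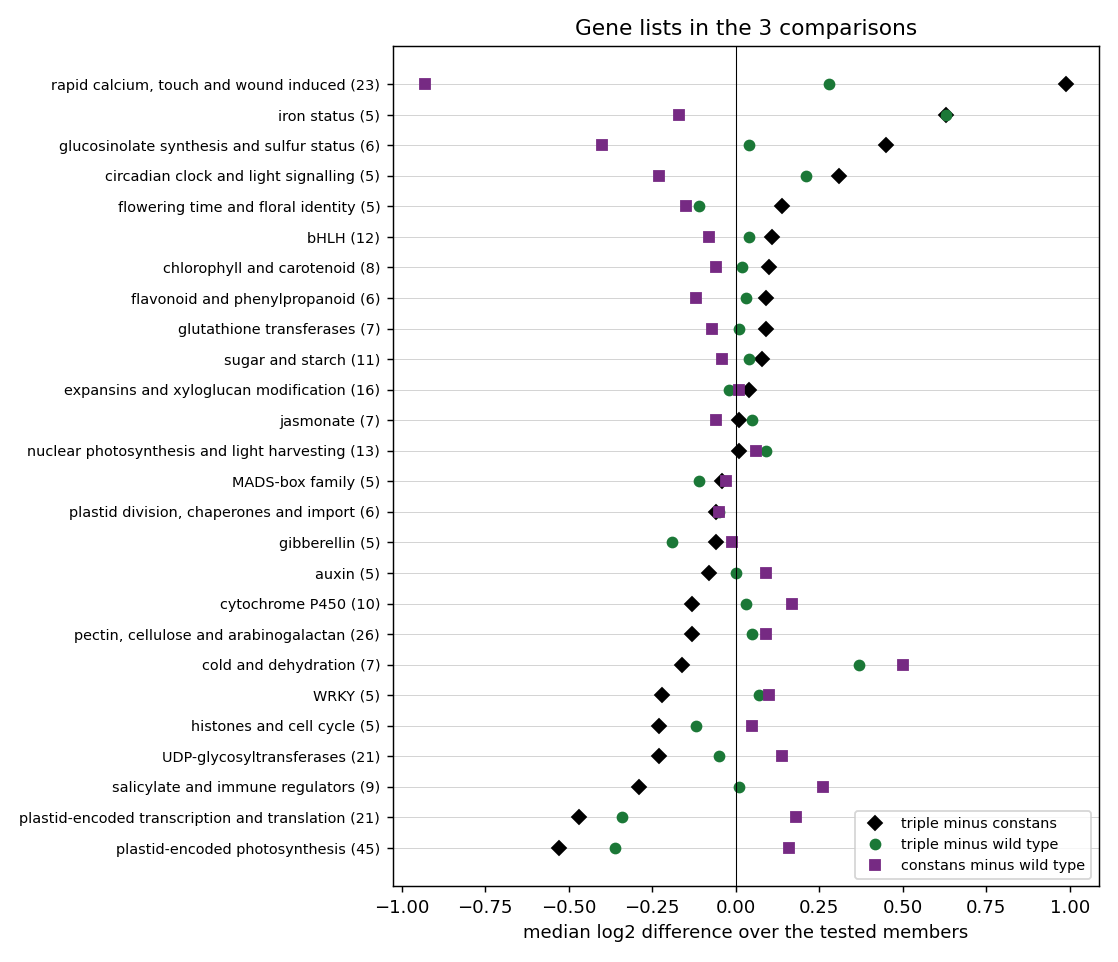
Points are the median log2 difference over the tested members of each list with 5 or more, in the direct comparison (black) and for each mutant against wild type (green and purple), with the number of tested members in brackets. The rapidly induced list has its constans point at -0.93 and its triple mutant point at 0.28. These points were set in part by 12 members that earlier results of these data had named. Over the other 11 tested members the medians were -0.16 and 0.28. The plastid-encoded lists have triple mutant points of -0.36 and -0.34.

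A few of the largest falls were in loci annotated as pseudogenes. Of 40 tested probe sets of such loci 6 were called, 5 of them higher in the constans mutant, beside 3.38% called and 1.45% lower in the triple mutant over all tested probe sets. AT4G14610, a transcribed pseudogene, had signals of 15.8, 23.6 and 14.8 on the triple mutant arrays, 35.7, 71.9 and 50.0 on the constans arrays and 21.4, 16.8 and 17.9 on the wild-type arrays. The constans arrays were above all others (-1.51 ± 0.28, adjusted p = 0.00766). AT2G24160 stood at 8.33, 18 and 14.3 on the triple mutant arrays, 34.3, 49.4 and 35.2 on the constans arrays and 19.3, 17.4 and 16 on the wild-type arrays (-1.60 ± 0.30, adjusted p = 0.00893), with the same order. AT3G48650 had a difference of -1.76, AT2G14130 of -2.57 and AT3G33066 of -1.68, and AT3G29120, outside the naming rule, was higher in the triple mutant by 1.37. Relative to wild type AT3G48650 stood at 1.60 in constans and -0.16 in the triple mutant. For AT2G14130 and AT3G33066 the triple mutant was further from wild type, at -2.09 and -1.54, against 0.48 and 0.14 in constans. None of these distances to wild type was called. Probe sets of such loci can bind transcripts of related genes, which the files do not allow to be told apart.

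The remaining large falls were AT2G34140 with -1.54 ± 0.28, AT3G44140 with -1.83 ± 0.39 and AT2G07739 with -1.41 ± 0.25 (adjusted p = 0.00705, 0.0207 and 0.00634). None of these pseudogene loci and large falls passed with the 25S covariate, where the adjusted p was 0.306 for AT4G14610, 0.131 for AT2G24160, 0.08 for AT2G34140 and 0.33 for AT3G29120. Calls were lost when the named single arrays were left out for AT3G29120 (triple 1/2/3, constans 1/3, wild type 1/2/3, adjusted p = 0.0515 to 0.167), AT2G14130 (constans 2/3, adjusted p = 0.0662 to 0.0904), AT3G48650 (triple 2/3, constans 2/3, adjusted p = 0.0764 to 0.114), AT3G33066 (triple 2/3, constans 2/3, adjusted p = 0.0578 to 0.131), AT3G44140 (triple 2/3, constans 2/3, adjusted p = 0.0589 to 0.0871) and AT2G34140 (constans 3, adjusted p = 0.0522).

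Along the nuclear chromosomes the single-gene calls were spread, at 2.23% to 3.18% of tested probe sets on each of the 5. On the plastid genome 9 of 69 were called (13.0%), all lower in the triple mutant.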

How the data were processed

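RNA from the above-ground parts of 10-day-old plants was hybridised to 9 ATH1 arrays, 3 for each of 3 genotypes. The deposited intensity values are linear MAS5 signals, made with MAS5 and GCOS per the submitters' processing notes, with no version given, and all arrays have the same trimmed mean. The deposited table holds no detection calls, so signals near the floor are bounds only. It has 22810 probe sets, of which 64 controls were left out, and no per-sample column was unused (0). Signals below the 10th percentile (1.03) were set to it and log2 taken. Probe sets with a genotype mean under 18.6 everywhere, the 40th percentile, were dropped, which left 14173, of which 7691 match 1 gene, 282 several and 6200 none in the probe annotation.

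All 3 genotypes were fitted in limma 3.58.1 (lmFit and eBayes with an intensity trend, R 4.3.3), with Benjamini-Hochberg adjustment over all tested probe sets and 6 residual degrees of freedom. The fit was tested on simulated data. Tables were joined in Python 3.11.15 with pandas 2.3.3.

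Members and gene lists were chosen with earlier results of these data known, so the count of calls in a list is not free of that choice. Named are the 15 largest rises and 15 largest falls among called single-gene probe sets whose mutants do not overlap, up to 4 called members with the smallest p per list (or 2 uncalled), the mutated and flowering genes where a probe set carries their name, and the 3 largest rises and falls among unnamed probe sets. Other list members given to complete a list fall outside this rule. Alternatives changed the normalization, floor, pseudocount, filter, annotation, variance trend, array weights, groups fitted, the replicate block and the 25S control, and left out each array. Correlations of same-numbered deviations between the mutants were 0.099, 0.007 and 0.075, against -0.113 to 0.043 for arrays of different number. Whether replicate numbers pair the arrays cannot be told from these values, and the main fit left them unpaired. A search of promoters for motifs was not run, since no promoter sequences were used here.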

Additional observations from a re-analysis of the deposited data

Results flagged for a closer look

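A 25S ribosomal RNA control lies outside the main measurement, and its highest constans array read 1152, above the highest wild-type array at 418. Constans 3 read 1079 and constans 1 read 56.5. Its share in the differences was not tested beyond the fits with it as a covariate and without the arrays above 400.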

How the results depend on the processing

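No call on the 479 probe sets changed direction under the 22 alternatives, and 75 passed in each that tested them. The 479 calls between the mutants became 185 with no filter, 192 with single-gene probe sets alone, 306 with no variance trend, 1192 with array weights, 132 with the 25S covariate, 135 without the arrays of 25S above 400 and 169 at 2-fold or more, and leaving out 1 array gave 207 (without constans 3) to 927 (without constans 1). The 13 calls of the triple mutant against wild type became 8 with quantile normalization (3 of them higher, against 7 of 13), 8 with median centring (4 higher), 4 with single-gene probe sets, 4 with no trend, 99 with array weights, 28 with only these groups, 8 with the 25S covariate, 27 without the arrays of 25S above 400 and 8 at 2-fold or more, and 5 (without triple mutant 2 or wild type 1) to 26 (without constans 1) with 1 array left out. The 198 calls of the constans mutant became 56, 76, 102, 37 and 63 with no filter, single-gene probe sets, no trend, without the arrays of 25S above 400 and at 2-fold or more, and 94 (without wild type 2) to 226 (without constans 1) with 1 array left out. Median centring left 72 of 152 higher there, against 111 of 198. The 151 placed in constans alone became 44 with no filter, 56 with single-gene probe sets, 79 with no trend, 92 with the 25S covariate, 31 without the arrays of 25S above 400 and 75 to 191 with 1 array left out. The 10 placed in the triple mutant alone became 6 with quantile normalization, 6 with median centring, 5 with no filter, 4 with single-gene probe sets, 3 with no trend, 58 with array weights, 5 with the 25S covariate and 3 to 21 with 1 array left out. With the replicate block the calls were 661, 20 and 234 in the 3 comparisons, against 479, 13 and 198, and not every array correlated best with its own number. Of 56 called probe sets named by the rule, 14 passed in each alternative. Cause was not tested where the tested set did not itself shrink. Scaling moved the median of all probe sets by at most 0.052. Signals near the floor limit the sizes of the largest differences, and the promoter motif search was not run.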
